A study of Mus musculus with 8 samples.

Results

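The genes described here are 30 mouse genes of cholesterol and fatty acid synthesis, chosen by symbol for their place in the pathway. A row was found for 29 of the 30 among the 24328 gene symbols measured, and Hmgcs1 was not analysed here. All 29 reached 1 FPKM (fragments per length of transcript and size of library) in at least 2 libraries, as did 12515 genes in all. They comprise 5 regulators, 6 measured enzymes of the mevalonate stage, 9 enzymes of the sterol stage, 8 enzymes that make, elongate or desaturate fatty acids, and 1 sterol carrier.

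Cholesterol is built from acetyl-CoA, first into mevalonate and isoprenoid units, then into squalene, which is closed into lanosterol and trimmed to cholesterol. Fatty acids start from the same acetyl-CoA, which Acly makes from citrate and Acss2 from acetate. Much of this gene set is switched by the membrane-bound SREBP factors, encoded by Srebf1 and Srebf2. Scap carries them out of the endoplasmic reticulum when sterol is low, and Insig1 and Insig2 hold Scap back when sterol is high. Dividing cells need new membrane, and these pathways are commonly more active in them.

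Satellite cells, which are resident stem cells in skeletal muscle, were taken from mice aged 2 months on a C57BL/6 background. They were sorted as Vcam-positive cells that lacked CD31, CD45 and Sca-1. The 8 libraries form 4 groups of 2. PFA-perfused cells came from Pax7-nGFP mice, in which Pax7 regulatory sequence drives a nuclear green fluorescent protein, and the perfusion with paraformaldehyde fixed the cells before isolation. PBS-perfused cells came from Pax7-nGFP mice perfused with buffer. Unperfused cells came from wild type mice that were not perfused. Injury-activated cells also came from such mice, 2.5 days after injury. A kit made for paraffin-embedded tissue was used to extract RNA from the fixed cells, and a kit for low cell numbers for the rest. Genotype therefore cannot be told apart from perfusion between the unperfused and either perfused group, nor the kit from fixation. Injury-activated and PFA-perfused cells differ in injury, genotype, perfusion, fixation and kit at once, so differences between them cannot be assigned to any of these. Whether libraries of one group stem from different animals, or from pools, is not given in the labels, so p-values reflect the spread between libraries alone, and that spread may be technical. FPKM summed to between 461454.3 and 582336.2 per library. The files used here hold no read counts, so sequencing depth is unknown. Of 10 satellite cell markers none was at 0 in any group, and Pax7, their defining factor, ranged from 4.40 FPKM in an injury-activated library to 567 FPKM in a PFA-perfused library. After injury 7 of the 10 fell and 1 rose against unperfused cells (median log2 fold change -2.41), by the limma rule given below. In injury-activated against PFA-perfused cells 7 fell and 3 rose. Of all genes 29.3% fell and 40.8% rose against unperfused cells, and 47.3% fell and 26.1% rose against PFA-perfused cells. Calcr, a marker of quiescent satellite cells, was under 1 FPKM in both injury-activated libraries, and Sdc4, a surface proteoglycan, ran from 239 FPKM in a PFA-perfused to 40320 FPKM in an unperfused library.

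Sequence before the gene starts is shown because SREBP factors act from sites close to the start, usually beside sites for the partner factors NF-Y and Sp1. A window of 250 bases upstream was at hand in RefSeq (GRCm38.p6, whereas the expression values rest on mm9) for 24 of the 30 genes, with 32 windows since some genes have several starts. No window was matched for Fdft1, Fdps, Sqle, Scd1, Scd2 and Stard4. The motifs searched on both strands were TCACNCCAC (a sterol regulatory element), CCAAT (the NF-Y motif), GGGCGG (an Sp1 motif) and CACGTG (an E-box). None of the matches printed below overlap. Capitals mark the matches on either strand, so a CCAAT on the opposite strand reads ATTGG and a GGGCGG on the opposite strand reads CCGCCC. The Hmgcs1 window, chr13:119690101-119690350 on the plus strand, is the 1 member window that holds the sterol regulatory element. The other 4 were chosen after the expression values were seen, for the 2 Insig genes and for 2 enzymes that were higher after injury. They are Insig1, chr5:28071162-28071411 (plus), Insig2, chr1:121332590-121332839 (minus, the most upstream of 3 annotated starts), Idi1, chr13:8885356-8885605 (plus), and Lss, chr10:76531355-76531604 (plus).
Hmgcs1: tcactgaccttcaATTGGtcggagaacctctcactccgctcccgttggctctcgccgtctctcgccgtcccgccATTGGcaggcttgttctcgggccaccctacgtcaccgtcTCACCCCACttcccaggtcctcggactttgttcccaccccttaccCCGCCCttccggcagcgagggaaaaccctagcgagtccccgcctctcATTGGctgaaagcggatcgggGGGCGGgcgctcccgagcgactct
Insig1: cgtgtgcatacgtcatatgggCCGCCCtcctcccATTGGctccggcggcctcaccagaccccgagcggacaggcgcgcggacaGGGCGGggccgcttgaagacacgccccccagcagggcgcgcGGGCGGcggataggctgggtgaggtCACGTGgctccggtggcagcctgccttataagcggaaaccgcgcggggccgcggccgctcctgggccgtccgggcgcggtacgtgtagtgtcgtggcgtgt
Insig2: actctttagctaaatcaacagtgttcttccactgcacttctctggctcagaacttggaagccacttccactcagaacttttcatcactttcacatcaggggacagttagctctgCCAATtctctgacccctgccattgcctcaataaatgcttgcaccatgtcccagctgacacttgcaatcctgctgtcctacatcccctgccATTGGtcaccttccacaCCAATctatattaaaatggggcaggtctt
Idi1: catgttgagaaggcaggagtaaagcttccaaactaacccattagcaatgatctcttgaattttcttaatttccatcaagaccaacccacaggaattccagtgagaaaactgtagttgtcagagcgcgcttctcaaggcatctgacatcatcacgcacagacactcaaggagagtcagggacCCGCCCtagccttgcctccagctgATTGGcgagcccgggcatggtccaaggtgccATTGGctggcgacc
Lss: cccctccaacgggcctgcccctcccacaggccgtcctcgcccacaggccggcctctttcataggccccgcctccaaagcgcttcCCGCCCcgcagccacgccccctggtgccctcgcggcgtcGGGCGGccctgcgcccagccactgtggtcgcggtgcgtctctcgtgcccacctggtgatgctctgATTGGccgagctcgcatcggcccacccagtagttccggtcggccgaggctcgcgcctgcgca

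The sterol regulatory element was found in 1 of 32 member windows (3.12%) and in 1.05% of all 32851 windows of that length. CCAAT was found in 20 of 32 member windows (62.5%) against 33.8% of all windows, and GGGCGG in 22 of 32 (68.8%) against 32.7%. CACGTG was present in 5 of 32 member windows (15.6%) and in 6.02% of all windows. The windows printed differ in what they hold. In Hmgcs1 the sterol regulatory element begins 137 bases before the start, between CCAAT matches at 176 and 45 bases. Insig1 has 3 GGGCGG matches, 1 CCAAT and 1 CACGTG, whereas the Insig2 window printed has 3 CCAAT matches and no match of the other motifs. The Insig2 windows not printed, chr1:121328025-121328274 and chr1:121327679-121327928, each hold 1 GGGCGG match and no CCAAT. Idi1 has a pair of CCAAT matches at 45 and 14 bases before the start. These are matches of letters and were not tested for binding.

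The 29 genes did not change as a block in any comparison. After injury, most enzymes were higher than in unperfused cells and both Insig genes were far lower. In the perfused and unperfused cells the enzymes split, with some mevalonate and sterol genes higher and others lower in the same comparison. Every mevalonate or sterol enzyme called higher in those 3 comparisons lost the call in some runs with 1 library left out. PFA-perfused library 2 was such a library for Acat2, Idi1, Sqle, Cyp51 and Hsd17b7, and PBS-perfused library 2 for Mvk and Pmvk. Each of these calls was also lost without another library, so none hung on a single one. Fold changes are differences of group means of log2(FPKM + 1), which understate the change of genes at low FPKM, and a gene counts as risen or fallen at a limma adjusted p under 0.05 over all 12515 genes. As deposited, the 12515 genes had a median log2 fold change of -0.50 for PBS-perfused minus PFA-perfused, -0.81 for unperfused minus PFA-perfused, -0.36 for unperfused minus PBS-perfused, 0.17 for injury-activated minus unperfused and -0.48 for injury-activated minus PFA-perfused cells. Each library rescaled by the trimmed mean of its log ratios brought these to -0.02, 0.03, 0.00, 0.04 and 0.22. The counts of pathway genes below are therefore given on both scales, and those of cell type and stress markers only as deposited. Fewer cells with a transcript and less of it per cell cannot be told apart in these bulk libraries.

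Between injury-activated and unperfused cells, 17 of 29 genes rose and 3 fell, where 40.8% of all genes rose and 29.3% fell. After trimmed mean scaling 16 rose and 5 fell, against 39.1% and 33.9% of all genes. The median log2 fold change of the 29 genes was 0.91 as deposited and 0.82 after scaling. Of the 17 rises, 13 held under every alternative processing and with each library left out. These were Acat2, Mvk, Idi1, Fdps, Fdft1, Lss, Nsdhl, Ebp, Dhcr7, Acly, Acaca, Elovl5 and Scd2, and the falls of Insig1 and Insig2 held as well. Injury-activated cells had the highest group mean of the 4 groups for 17 of 29 genes, where 28.9% of all genes did, and also for 17 after scaling, where 37.8% of all genes did.

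In PBS-perfused minus PFA-perfused cells, 7 genes rose and 16 fell, where 17.8% of all genes rose and 46.2% fell. Scaling gave 8 rises and 9 falls against 28.1% and 26.4% of all genes. The 7 that rose were Insig2, Acat2, Idi1, Sqle, Cyp51, Hsd17b7 and Stard4, and each was also called after scaling. None of the 7 was called by limma without PFA-perfused library 2, where 1 member was higher at an unadjusted p under 0.05, and 1 was called without PBS-perfused library 1. Of the 16 falls, 9 held under every alternative and with each library left out, namely Scap, Mvk, Mvd, Fdft1, Lss, Nsdhl, Dhcr7, Acss2 and Scd2.

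Set against the same PFA-perfused libraries, unperfused cells had 4 genes that rose and 16 that fell, where 17.4% of all genes rose and 56.3% fell. The count turned after scaling, to 11 rises and 8 falls against 35.3% and 32.6% of all genes, and the median of the 29 genes went from -1.09 to 0.06. The rises of Insig1 and Insig2 and the falls of Srebf1, Scap, Mvk, Mvd, Fdft1, Tm7sf2 and Acss2 held under every alternative and with each library left out. The other 2 rises, of Sqle and Hsd17b7, were lost without PFA-perfused library 2 or without unperfused library 1. Between unperfused and PBS-perfused cells, 6 genes rose and 11 fell, where 13.1% of all genes rose and 36.5% fell, and scaling gave 10 rises and 5 falls against 24.2% and 22.9%. Rises of Insig1, Acaca and Scd2 and falls of Srebf1, Ebp, Elovl5 and Stard4 held throughout. Without PBS-perfused library 2 the count of rises was 3, and without unperfused library 2 the count of falls was 5. Injury-activated minus PFA-perfused cells gave 12 rises and 9 falls, where 26.1% of all genes rose and 47.3% fell, and 19 rises and 5 falls after scaling, against 42.5% and 31.1%. Of these, the rises of Acat2, Idi1, Sqle, Cyp51, Acly, Acaca, Elovl5 and Scd2 and the falls of Srebf1, Scap, Insig2, Tm7sf2 and Acss2 held throughout. The comparisons share libraries, so their counts are not independent of each other.

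**Figure D1:**
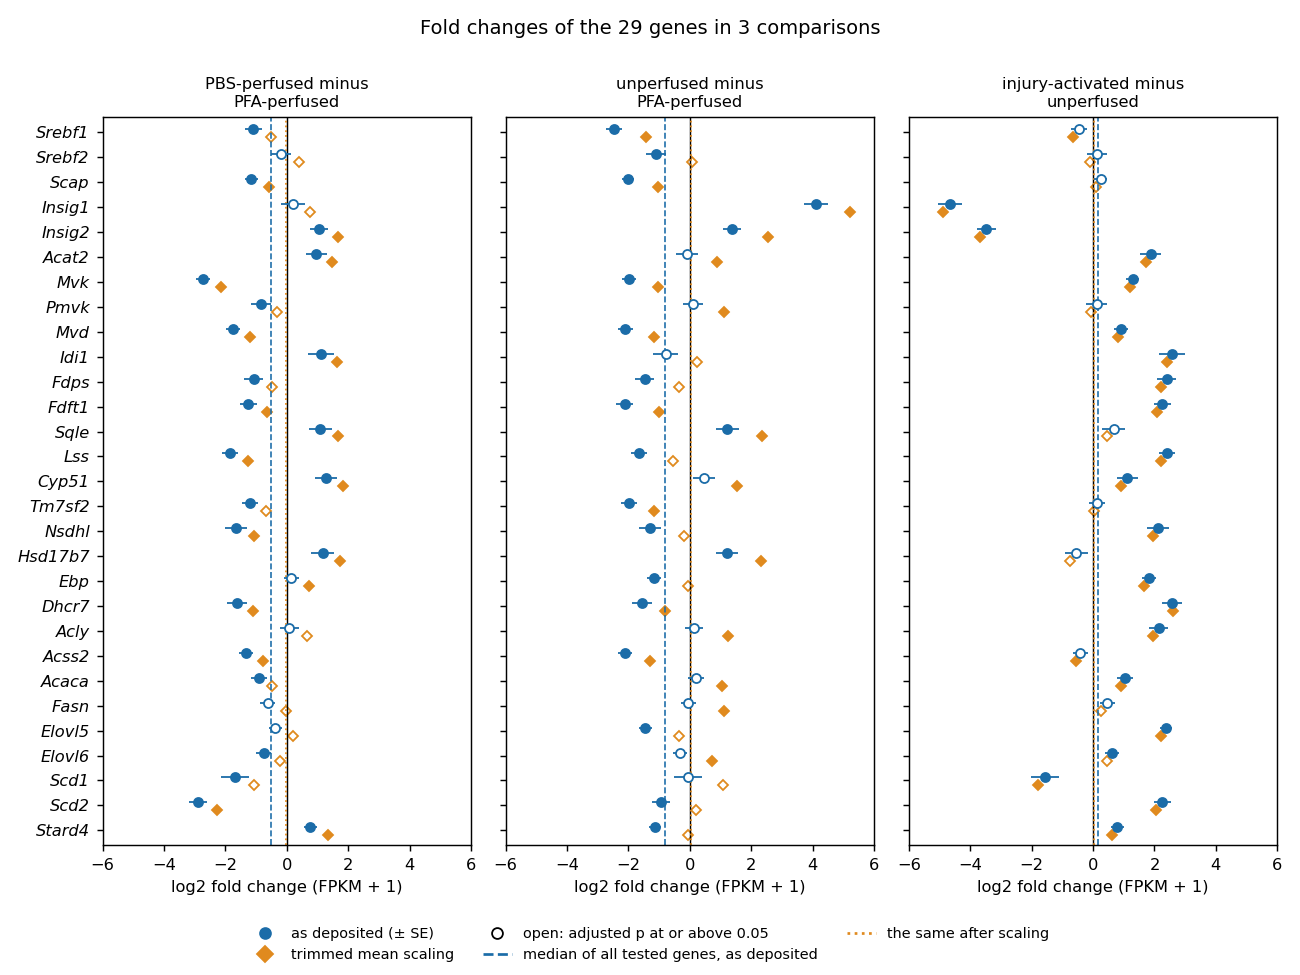
Log2 fold change (x axis, of FPKM + 1) of the 29 genes (rows) in 3 comparisons, as deposited (blue circles with standard errors) and after trimmed mean scaling (orange diamonds), filled where the adjusted p was under 0.05, with dashed and dotted lines at the median of all tested genes on each scale. In injury-activated minus unperfused cells 17 of 29 blue circles are filled to the right of 0, and Insig1 lies at -4.66.

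Among the regulators, Insig1 had the widest range as a ratio of highest to lowest library, and Insig2 the widest in FPKM. Insig1, which retains Scap in the endoplasmic reticulum and is itself a well known SREBP target, measured 22.6 and 9.71 FPKM in PFA-perfused, 16.7 and 18.01 in PBS-perfused, 204 and 368.5 in unperfused and 11.1 and 8.75 in injury-activated libraries. The unperfused libraries stood far above the other 6, among which the PFA-perfused range overlaps both others. Insig1 rose in unperfused against PFA-perfused cells by 4.11 ± 0.39 on the log2 scale (SE, limma adjusted p = 1.64e-05) and fell after injury, against unperfused cells, by 4.66 ± 0.39 (limma adjusted p = 8.5e-06). Between PBS-perfused and PFA-perfused cells its log2 difference was 0.21, with a limma adjusted p of 0.664. For injury-activated minus PFA-perfused cells the difference was -0.55 (limma adjusted p = 0.228), and 0.33 after scaling.

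Insig2, the second such anchor, which responds less to SREBP, was high in all 3 uninjured groups. It measured 317 and 241 FPKM in PFA-perfused, 746 and 443 in PBS-perfused, 717 and 719 in unperfused and 64.7 and 62.7 in injury-activated libraries. Every uninjured library lay above both injury-activated libraries, and after injury Insig2 fell by 3.47 ± 0.31 on the log2 scale against unperfused cells (limma adjusted p = 1.09e-05). The rise in PBS-perfused over PFA-perfused cells, a log2 fold change of 1.06, was lost without PFA-perfused library 2 or PBS-perfused library 1.

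Srebf1, which encodes SREBP-1a and SREBP-1c, the factors most tied to fatty acid genes, had its highest levels in PFA-perfused and its lowest in injury-activated cells. It measured 27.1 and 29.6 FPKM in PFA-perfused, 9.77 and 16.8 in PBS-perfused, 4.98 and 3.59 in unperfused and 2.96 and 2.68 in injury-activated libraries, with no overlap between any groups. The log2 fold change was -2.48 ± 0.26 in unperfused against PFA-perfused cells (limma adjusted p = 3.14e-05) and -1.42 after scaling. The difference between injury-activated and unperfused cells did not pass the test as deposited (-0.46, limma adjusted p = 0.15) and passed after scaling (-0.65).

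Srebf2, the main factor for sterol genes, varied less. It measured 90.9 and 68.6 FPKM in PFA-perfused, 48.9 and 96.8 in PBS-perfused, 41.7 and 32.03 in unperfused and 42.1 and 37.5 in injury-activated libraries. The PBS-perfused libraries span the PFA-perfused ones, and the unperfused and injury-activated libraries overlap. Its fall in unperfused against PFA-perfused cells (-1.09 on the log2 scale) became 0.06 after scaling. Scap, the sterol sensor that escorts both factors, was 13.5 and 12.8 FPKM in PFA-perfused, 4.56 and 6.24 in PBS-perfused, 2.75 and 2.23 in unperfused and 3.23 and 3.03 in injury-activated libraries. Scap fell in PBS-perfused (-1.15) and in unperfused cells (-2.02) against PFA-perfused cells, on both scales, and its log2 difference after injury against unperfused cells was 0.25.

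**Figure D2:**
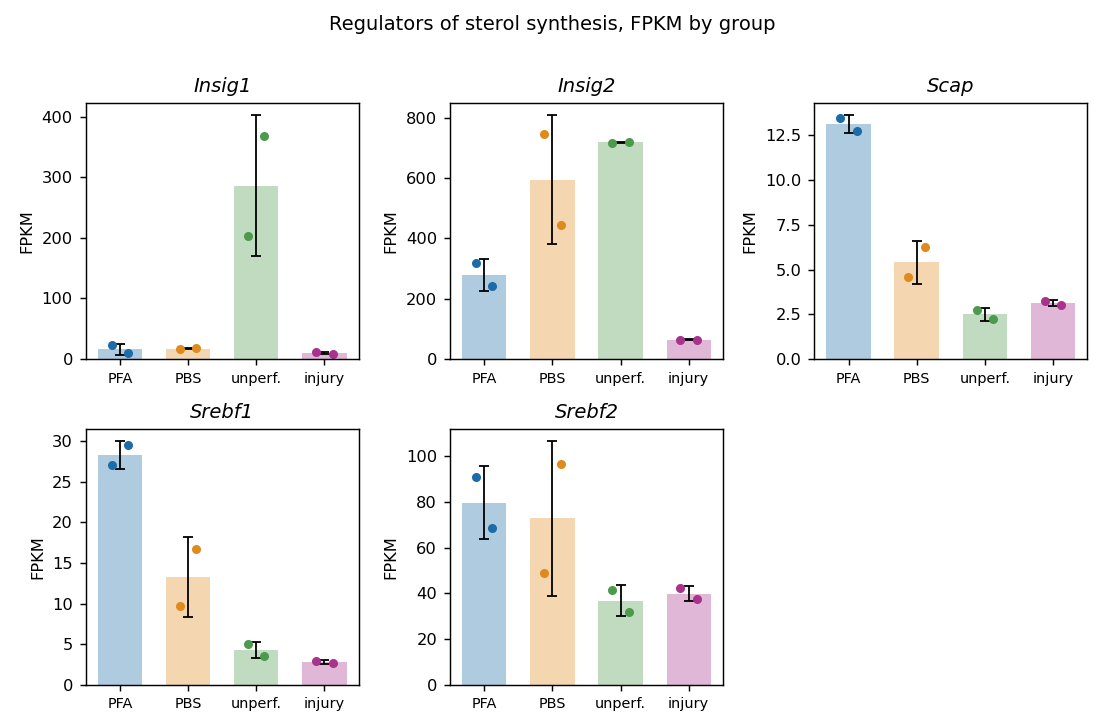
FPKM (y axis, linear, from 0) of 5 regulators of sterol synthesis by group (x axis), 1 point per library, with bars at the mean and error bars of 1 SD (n = 2). Insig1 is high in the unperfused libraries alone (204 and 368.5 FPKM), and Srebf1 is highest in PFA-perfused libraries (27.1 and 29.6 FPKM).

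The 6 measured enzymes of the mevalonate stage went in opposite directions between the perfused groups and mostly upwards after injury. In PBS-perfused against PFA-perfused cells, 2 rose (Acat2 and Idi1) and 4 fell (Mvk, Pmvk, Mvd and Fdps), where 17.8% of all genes rose and 46.2% fell. After scaling the falls of Mvk and Mvd remained called, where 26.4% of all genes fell. After injury against unperfused cells 5 of 6 rose on both scales, Pmvk being the exception with a log2 difference of 0.11. In that comparison 40.8% of all genes rose and 29.3% fell, and 39.1% and 33.9% after scaling.

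Acat2 joins acetyl-CoA units in the cytosol. It measured 7.604 and 5.01 FPKM in PFA-perfused, 19.3 and 8.79 in PBS-perfused, 6.88 and 4.71 in unperfused and 26.7 and 20.8 in injury-activated libraries. Both injury-activated libraries were above all others, and the log2 fold change against unperfused cells was 1.87. Acat2 has a near-identical neighbour, Acat3, in the mouse, so its reads may be split between them and its level is uncertain.

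Mvk, the kinase that phosphorylates mevalonate, had one of the largest differences between the perfused groups. Its levels were 11.3 and 9.43 FPKM in PFA-perfused, 0.888 and 0.541 in PBS-perfused, 2.19 and 1.59 in unperfused and 7.08 and 5.08 in injury-activated libraries. Levels were lowest in PBS-perfused cells, where the log2 fold change against PFA-perfused cells was -2.73 ± 0.22 (limma adjusted p = 2.95e-05) as deposited and -2.15 after scaling. It rose after injury by 1.29 on the log2 scale against unperfused cells. Against PFA-perfused cells its fall of 0.69 became a difference of 0.16 after scaling.

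Pmvk and Mvd carry out the 2 steps after Mvk. Pmvk measured 5.87 and 5.33 FPKM in PFA-perfused, 3.93 and 1.78 in PBS-perfused, 4.47 and 8.29 in unperfused and 7.65 and 5.87 in injury-activated libraries, and its group ranges overlap except between PBS-perfused cells and the others. Its fall in PBS-perfused against PFA-perfused cells had a limma adjusted p of 0.0496 and was lost under most alternatives. Mvd, which makes isopentenyl diphosphate, measured 11.7 and 8.39 FPKM in PFA-perfused, 2.26 and 2.197 in PBS-perfused, 1.797 and 1.32 in unperfused and 4.61 and 3.09 in injury-activated libraries. PFA-perfused cells were the highest group for Mvd, with a log2 fold change of -1.76 in PBS-perfused and -2.10 in unperfused cells against them.

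Idi1, the isomerase that balances the isoprenoid units, measured 18.7 and 6.898 FPKM in PFA-perfused, 29.98 and 22.3 in PBS-perfused, 7.94 and 4.81 in unperfused and 50.6 and 34.7 in injury-activated libraries. The PFA-perfused libraries differ widely, and the lower of them overlaps the unperfused range. The log2 fold change was 2.57 ± 0.42 after injury against unperfused cells (limma adjusted p = 0.000454) and -1.90 in unperfused against PBS-perfused cells, the latter lost without unperfused library 2. Fdps, which makes farnesyl diphosphate, measured 48.7 and 30.1 FPKM in PFA-perfused, 17.5 and 17.7 in PBS-perfused, 16.6 and 10.3 in unperfused and 86.2 and 62.3 in injury-activated libraries. It rose after injury by 2.39 ± 0.31 on the log2 scale (limma adjusted p = 9.98e-05). Fdps and Idi1 have related copies in the genome that could share reads, so their levels carry that uncertainty.

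Of the 9 enzymes of the sterol stage, 3 rose and 5 fell in PBS-perfused against PFA-perfused cells, where 17.8% of all genes rose and 46.2% fell. After scaling 4 rose and 4 fell, against 28.1% and 26.4% of all genes. Sqle, Cyp51 and Hsd17b7 rose on both scales, while Fdft1, Lss, Nsdhl and Dhcr7 fell on both. After injury against unperfused cells 6 of 9 rose on both scales and none fell in limma, as deposited also 0 at an unadjusted p under 0.05, with a median log2 fold change of 1.82 as deposited. In that comparison 40.8% of all genes rose and 29.3% fell, and 39.1% and 33.9% after scaling. Sqle, Tm7sf2 and Hsd17b7 were the 3 not called.

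Fdft1 commits farnesyl diphosphate to squalene. Its levels were 85.3 and 55.03 FPKM in PFA-perfused, 29.5 and 27.02 in PBS-perfused, 16.7 and 13.4 in unperfused and 87.2 and 65.1 in injury-activated libraries. Unperfused cells were lowest, and the log2 fold change was -2.12 against PFA-perfused cells and 2.26 for injury-activated against unperfused cells. The PFA-perfused and injury-activated ranges overlap as deposited.

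Sqle, squalene epoxidase and a rate-limiting oxygen-dependent step, did not follow Fdft1. It measured 39.01 and 18.02 FPKM in PFA-perfused, 69.5 and 48.3 in PBS-perfused, 77.7 and 51.3 in unperfused and 113 and 90.95 in injury-activated libraries. PFA-perfused cells were lowest, and the log2 fold changes against them were 1.10 in PBS-perfused, 1.22 in unperfused and 1.89 in injury-activated cells, of which only the last held with each library left out. Lss closes epoxysqualene into lanosterol. It measured 35.9 and 31.9 FPKM in PFA-perfused, 10.3 and 7.22 in PBS-perfused, 10.3 and 9.57 in unperfused and 70.7 and 45.3 in injury-activated libraries. The log2 fold change was -1.85 ± 0.26 in PBS-perfused against PFA-perfused cells (limma adjusted p = 0.000334) and 2.40 ± 0.26 after injury against unperfused cells (limma adjusted p = 3.82e-05).

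Cyp51 removes a methyl group from lanosterol. Its levels were 16.3 and 7.76 FPKM in PFA-perfused, 32.3 and 25.8 in PBS-perfused, 19.5 and 12.96 in unperfused and 41.6 and 30.6 in injury-activated libraries. It rose in PBS-perfused against PFA-perfused cells (1.28 on the log2 scale), a call lost without PFA-perfused library 2 or PBS-perfused library 1. Hsd17b7, a ketosteroid reductase of the demethylation complex, had its highest means in PBS-perfused and unperfused cells, whose ranges overlap. It measured 26.2 and 12.3 FPKM in PFA-perfused, 55.8 and 31.1 in PBS-perfused, 46.6 and 39.5 in unperfused and 32.5 and 26.2 in injury-activated libraries. Nsdhl works in the same complex but had another pattern, with 38.1 and 21.3 FPKM in PFA-perfused, 11.3 and 6.28 in PBS-perfused, 9.25 and 12.9 in unperfused and 60.04 and 43.4 in injury-activated libraries. Both injury-activated libraries were above every uninjured library for Nsdhl, with a log2 fold change of 2.12 against unperfused cells. Against PFA-perfused cells the difference of 0.82 did not pass the test as deposited (limma adjusted p = 0.0597) and passed after scaling (1.74).

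The remaining 3 enzymes reduce or shift double bonds of the sterol ring. Tm7sf2, a sterol reductase, measured 6.63 and 5.47 FPKM in PFA-perfused, 3.03 and 1.32 in PBS-perfused, 0.6601 and 0.913 in unperfused and 1.11 and 0.781 in injury-activated libraries. It was the 1 sterol stage enzyme with its highest mean in PFA-perfused cells, and it fell in unperfused cells by 1.98 on the log2 scale. Ebp, a sterol isomerase, measured 25.1 and 23.01 FPKM in PFA-perfused, 29.5 and 24.4 in PBS-perfused, 12.6 and 8.18 in unperfused and 39.02 and 38.03 in injury-activated libraries. Dhcr7, a reductase that completes the sterol ring, measured 6.92 and 2.77 FPKM in PFA-perfused, 0.813 and 0.769 in PBS-perfused, 1.27 and 0.512 in unperfused and 10.4 and 9.81 in injury-activated libraries. Dhcr7 had one of the largest rises of the set after injury, 2.58 ± 0.33 on the log2 scale against unperfused cells (limma adjusted p = 0.000102), and Ebp rose by 1.82.

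**Figure D3:**
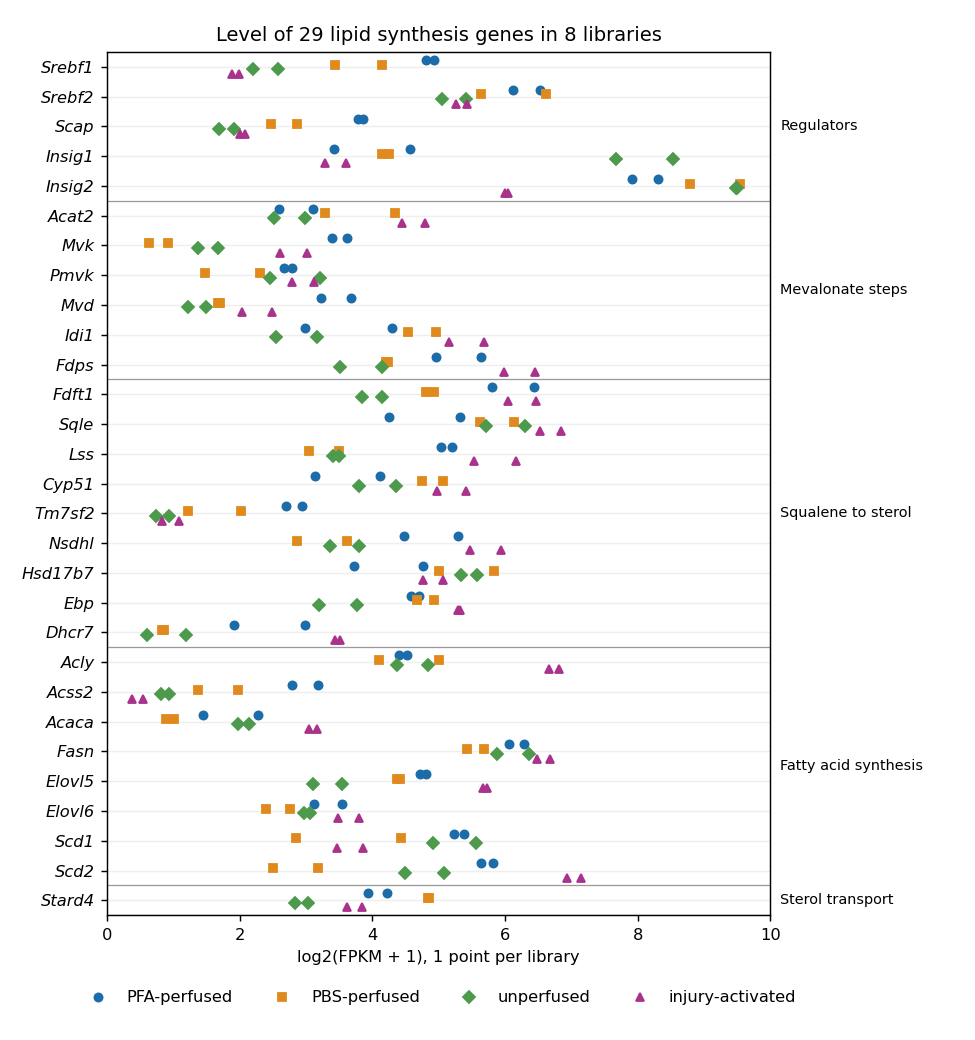
Level of the 29 genes (rows, grouped by role) as log2(FPKM + 1) on the x axis, 1 point per library, with marker and colour for the 4 groups. Injury-activated libraries lie farthest to the right for most enzymes and farthest to the left for Insig2. For Insig1 they lie near the left and overlap the PFA-perfused range.

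The 8 fatty acid genes included no rise by limma in PBS-perfused against PFA-perfused cells on either scale (as deposited 0 at an unadjusted p under 0.05), with 5 falls as deposited and 2 after scaling (Acss2 and Scd2). Of all genes 17.8% rose and 46.2% fell, and 28.1% and 26.4% after scaling. The share of falls after scaling thus lies near that of all genes. After injury against unperfused cells 5 of the 8 rose and 1 fell, where 40.8% of all genes rose and 29.3% fell. After scaling 4 rose and 2 fell, shares near the 39.1% and 33.9% of all genes. The 2 enzymes that supply acetyl-CoA had different orders. Acly measured 22.1 and 20.2 FPKM in PFA-perfused, 31.2 and 16.1 in PBS-perfused, 27.5 and 19.6 in unperfused and 111.5 and 100.3 in injury-activated libraries. Acss2 measured 8.05 and 5.91 FPKM in PFA-perfused, 2.905 and 1.59 in PBS-perfused, 0.902 and 0.758 in unperfused and 0.459 and 0.298 in injury-activated libraries. Acly rose after injury by 2.14 ± 0.31 on the log2 scale against unperfused cells (limma adjusted p = 0.000213), with both injury-activated libraries above all others. Acss2 differed by -0.41 between injury-activated and unperfused cells (limma adjusted p = 0.14), and by -0.57 after scaling, where it was called lower. Its levels were highest in PFA-perfused cells. Against them its log2 fold change was -2.11 in unperfused cells and -2.52 ± 0.23 in injury-activated cells (limma adjusted p = 1.13e-05 for the latter).

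Acaca and Fasn form the core of fatty acid synthesis. Acaca, the carboxylase that makes malonyl-CoA, measured 3.84 and 1.71 FPKM in PFA-perfused, 0.851 and 1.01 in PBS-perfused, 3.401 and 2.92 in unperfused and 7.26 and 7.93 in injury-activated libraries. It rose after injury by 1.05 on the log2 scale and in unperfused over PBS-perfused cells by 1.11. Fasn, the synthase, had a narrow range, at 77.2 and 65.98 FPKM in PFA-perfused, 41.98 and 50.5 in PBS-perfused, 81.5 and 57.8 in unperfused and 102 and 88.7 in injury-activated libraries. No comparison of Fasn passed the test as deposited, and the nearest was PBS-perfused against PFA-perfused cells with a limma adjusted p of 0.0501. After scaling Fasn was called higher in unperfused and in injury-activated cells against PFA-perfused cells (1.10 and 1.35) and in unperfused against PBS-perfused cells (1.12).

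Elovl5 and Elovl6 lengthen fatty acids, Elovl5 those with several double bonds and Elovl6 the saturated ones made by Fasn. Elovl5 measured 27.04 and 25.4 FPKM in PFA-perfused, 20.4 and 19.7 in PBS-perfused, 10.6 and 7.57 in unperfused and 49.9 and 51.8 in injury-activated libraries. Its 4 groups did not overlap, and the rise after injury against unperfused cells was 2.38 ± 0.21 on the log2 scale (limma adjusted p = 1.13e-05). Elovl6 measured 10.7 and 7.72 FPKM in PFA-perfused, 4.28 and 5.77 in PBS-perfused, 6.796 and 7.36 in unperfused and 12.97 and 10.13 in injury-activated libraries. Its rise after injury (0.63) was lost with any unperfused or injury-activated library left out.

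Scd1 and Scd2 are desaturases that place a first double bond, and they went in opposite directions after injury. Scd2 measured 55.6 and 48.8 FPKM in PFA-perfused, 8.05 and 4.66 in PBS-perfused, 21.4 and 32.7 in unperfused and 141 and 121 in injury-activated libraries. Its groups did not overlap, and it was lowest in PBS-perfused cells, with a log2 fold change of -2.89 ± 0.29 against PFA-perfused cells (limma adjusted p = 6.64e-05). Scd2 rose after injury against unperfused cells by 2.26 ± 0.29 (limma adjusted p = 0.000101). Scd1 measured 40.7 and 36.7 FPKM in PFA-perfused, 20.6 and 6.16 in PBS-perfused, 29.2 and 46 in unperfused and 13.5 and 10.03 in injury-activated libraries. Its log2 fold change after injury against unperfused cells was -1.57 ± 0.45 (limma adjusted p = 0.0117), a fall lost without unperfused library 2 or injury-activated library 2. The mouse has 4 Scd genes of near-identical sequence, and reads may be split between them.

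Stard4, which carries cholesterol between membranes, measured 17.6 and 14.3 FPKM in PFA-perfused, 28.01 and 27.5 in PBS-perfused, 6.13 and 7.198 in unperfused and 13.3 and 11.2 in injury-activated libraries. PBS-perfused cells were highest and unperfused cells lowest without overlap, and the log2 fold change between them was -1.91 ± 0.20 (limma adjusted p = 8.68e-05), with -1.41 after scaling.

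Other genes of these pathways, from lists drawn up by pathway, were counted alongside. Of 8 further sterol synthesis genes tested, 5 rose and none fell by limma after injury against unperfused cells (1 was lower at an unadjusted p under 0.05), where 40.8% of all genes rose and 29.3% fell. After scaling 4 of the 8 rose and 1 fell, against 39.1% and 33.9% of all genes. In PBS-perfused against PFA-perfused cells 4 of the 8 rose and 1 fell, against 17.8% and 46.2% of all genes, and after scaling 5 rose and 1 fell, against 28.1% and 26.4%. Msmo1, a methyl sterol oxidase, rose after injury against unperfused cells (1.39), a call lost under quantile normalization and without unperfused library 2 or injury-activated library 1. Sc5d, a desaturase, had a log2 difference of 0.27 in that comparison (limma adjusted p = 0.438). Against PFA-perfused cells it was higher in injury-activated (1.20) and also in unperfused cells (0.94). The latter call was lost without PFA-perfused library 2 or unperfused library 1.

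Of 15 genes of sterol uptake and export, 7 rose and 5 fell after injury against unperfused cells, and 6 rose and 5 fell after scaling. These shares lie near those of all genes, of which 40.8% rose and 29.3% fell, and 39.1% and 33.9% after scaling. The exporters Abca1 and Abcg1 fell after injury by 1.84 and 3.05 on the log2 scale, as did the sterol-sensing receptor gene Nr1h2 (-2.46), while Scarb1, a lipoprotein receptor, rose (2.20). Abcg1 was high in unperfused cells alone, at 10.4 and 21.8 FPKM against 0.774 and 1.13 in injury-activated libraries.

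Of 20 further fatty acid genes tested, 10 rose and 2 fell after injury against unperfused cells, and 10 rose and 5 fell after scaling. Among all genes 40.8% rose and 29.3% fell, and 39.1% and 33.9% after scaling. Slc25a1, which exports citrate from mitochondria as the substrate of Acly, measured 42.3 and 41.5 FPKM in PFA-perfused, 15.8 and 16.2 in PBS-perfused, 0.629 and 1.35 in unperfused and 1.31 and 1.26 in injury-activated libraries. Slc25a1 was thus lower in both groups without perfusion, with a log2 fold change of -4.45 in unperfused against PFA-perfused cells. Acsl4, which activates long polyunsaturated fatty acids, was lowest in PFA-perfused cells, at 11.7 and 12.3 FPKM in PFA-perfused, 41.7 and 21.1 in PBS-perfused, 292 and 364 in unperfused and 203 and 184.5 in injury-activated libraries. Acacb, the mitochondrial counterpart of Acaca, fell after injury by 1.84 against unperfused cells, where Acaca rose by 1.05. Acsl3, which activates long fatty acids, fell by 1.85, and Oxsm, an enzyme of mitochondrial fatty acid synthesis, rose by 2.77. Mid1ip1, an activator of the carboxylases, measured 19.6 and 21.1 FPKM in PFA-perfused, 15.4 and 18.3 in PBS-perfused, 2.17 and 1.88 in unperfused and 5.59 and 4.77 in injury-activated libraries. It rose after injury against unperfused cells (1.03) and was lower in injury-activated than in PFA-perfused cells (-1.79).

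Markers of other cells and of early stress moved with the groups. The summed level of 10 early stress genes, such as Fos and Jun, was 667.9 to 894.9 FPKM in PFA-perfused, 11220 to 11860 in PBS-perfused, 918.9 to 1346 in unperfused and 130.3 to 132.1 in injury-activated libraries. All 10 were higher in PBS-perfused than in PFA-perfused cells, where 17.8% of all genes rose. After injury 9 of 10 were lower than in unperfused cells, where 29.3% of all genes fell. Of 12 endothelial markers 10 were higher and 1 lower in PBS-perfused than in PFA-perfused cells, where 17.8% of all genes rose and 46.2% fell. Their sums were 189 to 282.3 FPKM in PBS-perfused, 113.3 to 131.1 in PFA-perfused, 31.13 to 44.51 in unperfused and 9.268 to 10.14 in injury-activated libraries. Tek (46.6 and 50.9 FPKM) and Ramp2 (53.4 and 47.4 FPKM) made up most of the PFA-perfused sum. Ramp2 was lower in PBS-perfused libraries, at 7.89 and 11.3 FPKM. Pecam1 was 3.13 and 1.25 FPKM in PFA-perfused and 33.9 and 19.7 in PBS-perfused libraries. Adipocytes, which make fatty acids, bear on this gene set. Their 10 markers summed to 24.79 to 57.16 FPKM in PFA-perfused, 141 to 175.2 in PBS-perfused, 6.805 to 7.409 in unperfused and 8.841 to 9.981 in injury-activated libraries. Fabp4 made up most of the PBS-perfused sum, while the defining markers Adipoq and Plin1 were at or below 0.0242 FPKM in all 8 libraries and Lep was at 0. Of the 4 adipocyte markers tested, 3 were higher and 1 lower in PBS-perfused than in PFA-perfused cells, where 17.8% of all genes rose and 46.2% fell. Lpl measured 17.65 and 8.895 FPKM in PFA-perfused and 6.613 and 7.277 in PBS-perfused libraries. All 4 were lower in unperfused than in PBS-perfused cells, where 36.5% of all genes fell. In injury-activated libraries 11 blood cell markers summed to 66.65 to 75.17 FPKM, with Ptprc under 1 FPKM, and 11 muscle fibre markers to 281.3 to 318.7 FPKM. Against unperfused cells 7 of 8 tested blood cell markers rose and 1 fell, and 6 of 7 tested fibre markers rose. Of all genes 40.8% rose and 29.3% fell in that comparison. The blood cell markers summed to 8.025 to 8.803 FPKM in PFA-perfused, 44.06 to 46.34 in PBS-perfused and 26.77 to 38.03 in unperfused libraries. The muscle fibre markers summed to 79.07 to 91.37, 53.77 to 73.78 and 38.58 to 44.83 FPKM in the same groups. Lyz2 gave 42.9 and 44.0 FPKM of the blood cell sum in injury-activated libraries, and Cd68 gave 32.1 and 23.0 FPKM in unperfused libraries. In unperfused libraries 9 of the 11 blood cell markers were under 1 FPKM. Acta1 gave 133 and 93.9 FPKM of the muscle fibre sum after injury, while Myh4, Myh2 and Pvalb stayed under 1 FPKM. The fibro-adipogenic list of 11 summed to 638.4 to 1075 FPKM in PFA-perfused, 479.2 to 581.9 in PBS-perfused, 682.7 to 808.8 in unperfused and 100.3 to 114.8 in injury-activated libraries. Dpt, Col3a1 and Cd34 made up most of the sum in PFA-perfused and unperfused libraries, and most members did not follow the sums. Of the 11, 8 rose and 2 fell in PBS-perfused against PFA-perfused cells (median log2 fold change 2.05). After injury against unperfused cells 5 rose and 3 fell, and in injury-activated against PFA-perfused cells 7 rose and 3 fell. In the same order of comparisons, 17.8%, 40.8% and 26.1% of all genes rose and 46.2%, 29.3% and 47.3% fell. Glial markers (8) summed to 23.88 to 24.45 FPKM in PFA-perfused, 26.07 to 26.9 in PBS-perfused, 4.99 to 6.675 in unperfused and 4.751 in both injury-activated libraries. The ribosomal RNA precursor Rn45s also differed, with 9.80% and 19.4% of summed FPKM in PFA-perfused libraries, 0.893% and 6.64% in PBS-perfused libraries and less than either of these in unperfused and injury-activated libraries. The part of these cells, of stress and of Rn45s in the results above was not tested.

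In 3 of the 4 groups the libraries differed in the same sense for nearly all enzymes of the sterol pathway. In PFA-perfused cells library 1 was above library 2 for 15 of the 15 mevalonate and sterol stage enzymes, where 63.1% of all genes had that order, and the median log2 ratio was 0.62 for the enzymes and 0.10 for all genes. It was above for 14 of 15 in PBS-perfused cells (median log2 ratio 0.41, 0.04 for all genes, 53.4% of which had that order). In unperfused cells the count was 12 of 15 (0.30 against 0.15, 67.1%), with Pmvk, Nsdhl and Tm7sf2 in the other order, and in injury-activated cells 15 of 15 (0.41 against 0.02, 57.5%). The 8 fatty acid genes had library 1 above library 2 for 8, 5, 5 and 6 genes in the same order of groups. This spread within groups is part of the error in the comparisons above. In PFA-perfused cells it reached a log2 ratio of 1.32, for Idi1, which is larger than the fold change of 1.11 between PBS-perfused and PFA-perfused cells for that gene.

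**Figure D4:**
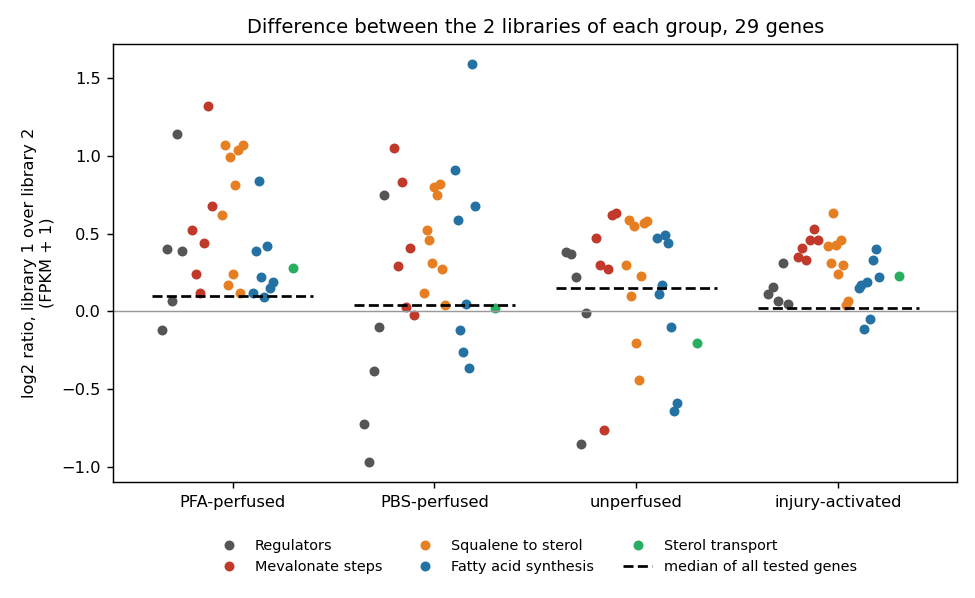
Log2 ratio of library 1 over library 2 (y axis, of FPKM + 1) for the 29 genes, 1 point per gene coloured by role, in each of the 4 groups (x axis), with a dashed line at the median of all tested genes. In PFA-perfused cells all 15 mevalonate and sterol stage enzymes lie above 0, with a median of 0.62 against 0.10 for all genes.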

How the data were processed

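RNA was measured by sequencing in 8 libraries of sorted satellite cells. Per the submitters' processing notes, STAR 2.5.3a, StringTie 1.3.3, R 3.4.1 and mm9 were used, without roles or settings. The table the authors deposited has 24328 gene symbols and 8 value columns, and its header names no unit. The values the authors made from aligned reads before they were deposited were taken as FPKM, because they hold decimals, their totals differ between libraries and StringTie, per the submitters' processing notes, was among the tools. The depth is unknown, so no counting interval is given.

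Values were analysed as log2(FPKM + 1), without scaling, for the 12515 genes with at least 1 FPKM in at least 2 libraries. All libraries entered 1 model in limma 3.58.1 (R 4.3.3) with no covariate and a trend of the variance with mean level. For 5 comparisons of group means, two-sided p-values were Benjamini-Hochberg adjusted over all genes tested and a gene was called under 0.05. The fit was also run on simulated data with independent noise and few changed genes, a setting unlike these comparisons. The outcome of that run is not reported here and does not bear on the calls. Figures and counts were made in Python 3.11.15.

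Alternatives were the replicate number as a block, only the 2 groups compared, no filter, a pseudocount of 0.1, trimmed mean scaling (trims 0.3 and 0.05), quantile normalization, removal of Rn45s and Malat1, and each library left out in turn. All 30 listed genes are named; of other pathway genes, a fixed few, Msmo1, Sc5d and Abca1 among them, and up to 4 of the largest called changes per comparison could be named; part of them is printed, and some are not reported here. Promoters to print were those with the sterol regulatory element; the other 4 were added after values were seen. The genes and lists were chosen with earlier results of these data known. The design text names 2 sequencers and the labels 1, so a sequencer difference was not tested.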

Additional observations from a re-analysis of the deposited data

How the results depend on the processing

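The counts of called genes changed both with scaling and with single libraries. Trimmed mean scaling changed the falls in PBS-perfused against PFA-perfused cells from 16 to 9. In unperfused against PFA-perfused cells it gave 11 rises and 8 falls, and in unperfused against PBS-perfused cells 10 rises and 5 falls. It gave 5 falls in injury-activated against unperfused cells, and 19 rises and 5 falls in injury-activated against PFA-perfused cells. It reversed the median of the members in unperfused against PFA-perfused cells, to 0.0596, and, in the same comparison, Abca1 (to 0.24), Nr1h2 (to 0.45), Scd2 (to 0.19) and Srebf2 (to 0.0596), and Mvk in injury-activated against PFA-perfused cells (to 0.16). The medians of the members moved to -0.33 (PBS-perfused against PFA-perfused), 0.30 (unperfused against PBS-perfused) and 1.35 (injury-activated against PFA-perfused). Quantile normalization gave 10 rises in unperfused against PFA-perfused cells and 5 falls in unperfused against PBS-perfused cells, moved the medians to -0.51 (unperfused against PFA-perfused) and 0.61 (injury-activated against unperfused), and reversed Abca1, unperfused against PFA-perfused, to 0.13. Without a filter there were 3 rises in PBS-perfused against PFA-perfused cells, 2 in unperfused against PFA-perfused cells, and 3 rises and 6 falls in unperfused against PBS-perfused cells. With only the 2 groups compared in the fit, 3 rises remained in count in PBS-perfused against PFA-perfused cells.

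With each library left out in turn, and its partner assumed to vary like the other groups, rises in PBS-perfused against PFA-perfused cells numbered 0 to 7, with 0 without PFA-perfused library 2 and 1 without PBS-perfused library 1. Rises in unperfused against PFA-perfused cells numbered 2 to 6, with 2 without PFA-perfused library 2 or unperfused library 1. Between unperfused and PBS-perfused cells, rises numbered 3 to 6 and falls 5 to 11, with 7 falls without PBS-perfused library 1 or unperfused library 1, and the median of the members ranged from -0.37 to 0.12, below 0 without PBS-perfused library 2 or unperfused library 1. In injury-activated against unperfused cells rises numbered 13 to 17.

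The replicate numbers are shared across groups without a stated pairing. The deviations of same-numbered libraries from their group means correlated across genes at 0.117, 0.062, 0.027, -0.047 and 0.018 in the 5 comparisons. With the replicate number as a block, the counts of rises and falls were 7 and 16, 4 and 17, 6 and 11, 18 and 3, and 14 and 9, in the order PBS-perfused against PFA-perfused, unperfused against PFA-perfused, unperfused against PBS-perfused, injury-activated against unperfused and injury-activated against PFA-perfused cells. A pseudocount of 0.1 and the removal of Rn45s and Malat1 left every count within 1.5 times its value. Unknown depth and 2 libraries per group limit what small differences can show.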
